A study of Rattus norvegicus with 8 samples.

Results

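The genes described here are the systemic iron regulators and carriers of the rat liver: the hormone hepcidin (Hamp), its upstream sensors Hfe, Hjv, Tfr2 and Bmp6, the exporter Slc40a1 with its ferroxidase Cp, the importer Slc11a2, and the plasma carriers Tf and Hpx. Members were chosen by gene symbol, and all 10 symbols were found once each among the 30562 genes of the count table. Reads per gene were measured by RNA sequencing in 8 liver libraries, 2 per group, each from a separate male Wistar rat by its label. The groups were atorvastatin plus hexachlorobenzene (HCB), HCB, atorvastatin, and a vehicle control. HCB, a chlorinated fungicide and persistent pollutant known for causing porphyria, reached the rats by oral tube for 30 days, 3 doses a week of 100 mg/kg each. Atorvastatin, a statin that blocks cholesterol synthesis, was drunk with the water, the stated daily dose being 5 mg/kg, although the recipe for that water works out at 31.25 mg/kg for a rat of the stated 160 g. Rats were killed on day 37, and 2 of the 5 rats of each group were sequenced. All 10 members had enough reads to be tested in every comparison.

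Hepcidin is a peptide hormone secreted by hepatocytes. It binds the iron exporter ferroportin, the product of Slc40a1, and causes its degradation, so that less iron leaves gut cells and macrophages. Hepatocytes raise Hamp transcription when bone morphogenetic proteins from sinusoidal endothelium engage receptors together with hemojuvelin (Hjv), and when transferrin loaded with iron is sensed through Tfr2 and Hfe. Inflammation raises Hamp through interleukin 6 and STAT3, and erythroferrone (Erfe) from red cell precursors lowers it. Hepatic porphyria caused by HCB is known to depend on liver iron.

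The libraries fell apart along the HCB label in ways that the treatment names do not cover. Libraries labelled HCB or atorvastatin plus HCB are called HCB-labelled here, and those labelled atorvastatin or control are called unexposed. All labels say male, yet the summed level of 5 chromosome Y genes was 136 to 217 CPM in the HCB-labelled libraries and 1.99 to 3.99 CPM in the unexposed libraries (CPM, the count of a gene for each 1000000 reads of the normalised library), with Ddx3 and Kdm5d the first of the list and Ddx3y not called. The 7 fetal liver genes, Afp, H19 and Igf2 first among them, summed to 184 to 364 CPM in the HCB-labelled libraries and 37626 to 51496 CPM in the unexposed libraries. The 12 erythroid markers, with Ahsp and Alas2 at their head, summed to 300 to 1306 CPM in the HCB-labelled libraries and 1961 to 5191 CPM in the unexposed libraries. The neutrophil list (Ngp, Camp, S100a8 and others) summed to 0.652 to 3.74 CPM in the HCB-labelled libraries and 135 to 226 CPM in the unexposed libraries. Hepatocyte markers such as Alb, Apoa1 and Ttr were present in every library, at 105813 to 166638 CPM in the HCB-labelled libraries and 65873 to 139140 CPM in the unexposed libraries. Macrophage markers (Cd68, Adgre1, Clec4f first) also overlapped, at 356 to 578 CPM in the HCB-labelled libraries and 296 to 481 CPM in the unexposed libraries, while sinusoidal endothelial markers (Stab2, Lyve1, Clec4g first) came to 747 to 893 CPM in the HCB-labelled libraries and 896 to 1104 CPM in the unexposed libraries. Averaged over both HCB comparisons, where 46.6% of all genes were called in either direction, 4 of 5 chromosome Y genes rose, all 7 fetal liver, all 12 erythroid and all 7 tested neutrophil genes fell, 5 hepatocyte markers rose and 1 fell of 9, 2 macrophage markers rose and 1 fell of 9, and 3 endothelial markers rose and 4 fell of 10. The erythroid regulator Gata1 had 0 reads in both atorvastatin plus HCB libraries, the neutrophil elastase Elane had 0 reads in both HCB libraries and in Atorvastatin plus HCB replicate 1, and Ltf had 0 reads in every library. In whole liver, fewer cells of a type and less RNA per cell cannot be told apart. Assigned reads were 29.4 M to 52.0 M per library, and reads outside annotated exons were 7.46% to 11.4% in the HCB-labelled libraries and 15.3% to 34.0% in the unexposed libraries, highest in Atorvastatin replicate 1 and Control replicate 1. Every difference below between HCB-labelled and unexposed libraries is also one between libraries with and nearly without chromosome Y expression and without and with fetal liver expression, and these cannot be told apart.

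The promoters of 4 members that are higher in HCB-labelled libraries are shown because each carries at least 1 match to 3 motifs searched, of BMP signalling, of STAT factors or of C/EBP, a factor family of liver and acute phase genes. Each is the 250 bases before the annotated start, 5′ to 3′ on the gene's strand, from RefSeq on the GRCr8 build, at chr1:95300272-95300521 (minus strand) for Hamp, chr2:186754551-186754800 (plus strand) for Hjv, chr2:104368420-104368669 (plus strand) for Cp and chr1:169352156-169352405 (minus strand) for Hpx. Capitals mark matches, on either strand, to GGCGCC (the core of the BMP response element), TTCNNNGAA (the STAT core) and TTGCNNAA (a core of the C/EBP site), and no matches overlapped.
Hamp: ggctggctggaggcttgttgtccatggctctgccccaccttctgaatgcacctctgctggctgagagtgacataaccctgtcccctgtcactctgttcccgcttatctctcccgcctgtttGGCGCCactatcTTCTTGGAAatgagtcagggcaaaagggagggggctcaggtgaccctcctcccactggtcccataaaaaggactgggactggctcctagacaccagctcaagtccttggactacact
Hjv: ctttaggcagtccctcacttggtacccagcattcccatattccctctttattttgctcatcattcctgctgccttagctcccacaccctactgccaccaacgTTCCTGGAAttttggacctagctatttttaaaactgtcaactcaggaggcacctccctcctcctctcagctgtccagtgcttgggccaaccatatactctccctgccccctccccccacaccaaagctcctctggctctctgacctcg
Cp: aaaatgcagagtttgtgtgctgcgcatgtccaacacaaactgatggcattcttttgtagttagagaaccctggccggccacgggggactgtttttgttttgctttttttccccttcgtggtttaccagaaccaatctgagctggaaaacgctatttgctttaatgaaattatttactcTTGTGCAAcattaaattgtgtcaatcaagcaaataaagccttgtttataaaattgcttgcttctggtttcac
Hpx: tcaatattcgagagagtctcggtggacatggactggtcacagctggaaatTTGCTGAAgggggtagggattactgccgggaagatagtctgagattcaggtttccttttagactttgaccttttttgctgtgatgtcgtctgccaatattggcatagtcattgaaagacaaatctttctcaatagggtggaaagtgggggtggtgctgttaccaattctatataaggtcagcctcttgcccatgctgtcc
The Hamp promoter held GGCGCC at bases 129 to 124 before the start and TTCTTGGAA at bases 117 to 109, side by side. The Hjv promoter held TTCCTGGAA at bases 148 to 140. The C/EBP letters lay at bases 72 to 65 in Cp, at 200 to 193 in Hpx and at 115 to 108 in Tf, which is not printed. Among 33469 rat promoters of the same length, 8.69% held GGCGCC, 7.67% held TTCNNNGAA and 9.22% held TTGCNNAA, so none of these matches is rare. Of the members, 9 had a promoter entry, and Hfe was the one without.

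Hepcidin differed most. Hamp (ENSRNOG00000021029, chromosome 1, 86170901 to 86172891 on mRatBN7.2, the build of all gene positions below) had 15.9 and 45.1 CPM in the atorvastatin plus HCB libraries, 102 and 44.9 CPM in HCB, 1.68 and 2.64 CPM in atorvastatin, and 0.457 and 2.72 CPM in control. The lowest HCB-labelled library stood well above the highest unexposed library, but libraries of 1 group differed by 2.84 times in atorvastatin plus HCB, 2.27 times in HCB and 5.96 times in control. The low values rest on few reads: Control replicate 1 held 18 Hamp reads, with an exact Poisson interval of 10.7 to 28.4 reads that covers counting error only, against 3226 reads in HCB replicate 1. The log2 fold change was 5.52 ± 0.86 in HCB versus control (SE; edgeR adjusted p = 0.0021, 95% interval 3.57 to 7.47) and 3.82 ± 0.80 in atorvastatin plus HCB versus atorvastatin (adjusted p = 0.0084). Hamp therefore rose in both comparisons, and the error leaves its size open over a wide range. Wherever a library is left out here, its group keeps 1 library, which is then assumed to vary as the other groups do. Without Control replicate 1, Control replicate 2 or HCB replicate 1 the log2 change in HCB versus control became 4.75, 7.35 or 4.83. In atorvastatin plus HCB versus atorvastatin it was 4.41 without Atorvastatin plus HCB replicate 1 and 2.90 without replicate 2, both still called, and the call was lost without Atorvastatin replicate 1 (adjusted p = 0.188) or Atorvastatin replicate 2 (adjusted p = 0.121).

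**Figure D1:**
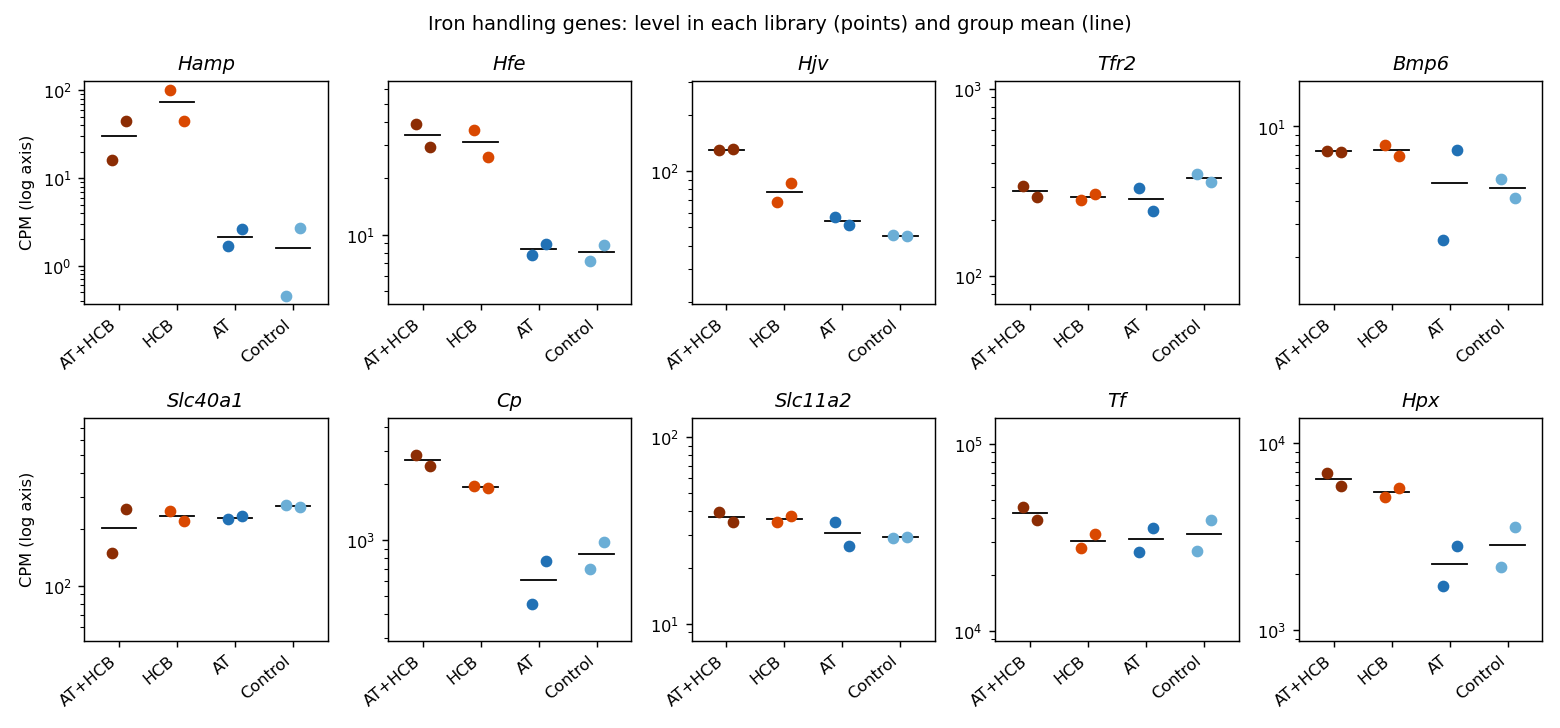
Level of each of the 10 genes in every library, in CPM on a log axis, with groups from left to right atorvastatin plus HCB (AT+HCB), HCB, atorvastatin (AT) and control; points are libraries and lines are group means of 2. Hamp, Hfe, Cp and Hpx form a high pair of groups and a low pair, while Tfr2, Slc40a1 and Tf lie at like heights across the panel.

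Of the hepcidin sensors, Hfe and Hjv rose and Tfr2 and Bmp6 did not pass the test. Hfe (ENSRNOG00000016967, chromosome 17, 41413451 to 41421502), the protein mutated in the common form of hereditary hemochromatosis and a partner of transferrin receptors, had 38.9 and 29.3 CPM in atorvastatin plus HCB, 36.3 and 26.0 CPM in HCB, 7.78 and 8.85 CPM in atorvastatin, and 7.21 and 8.83 CPM in control. Libraries of 1 group differed by 1.33 times in atorvastatin plus HCB, 1.40 in HCB, 1.14 in atorvastatin and 1.22 in control. No HCB-labelled library was near an unexposed one. The log2 change was 1.96 ± 0.27 in HCB versus control (adjusted p = 0.00056) and 2.04 ± 0.27 in atorvastatin plus HCB versus atorvastatin (adjusted p = 0.00046). Hfe kept both calls under all alternatives run, with any library left out included.

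Hjv (ENSRNOG00000021200, chromosome 2, 184065970 to 184069850), the hemojuvelin coreceptor for bone morphogenetic proteins, had 129 and 131 CPM in atorvastatin plus HCB, 68.2 and 86.5 CPM in HCB, 56.6 and 51.6 CPM in atorvastatin, and 45.5 and 44.9 CPM in control. In CPM it was the member whose 4 groups stood in a row without overlap, the combination highest and control lowest. That order rests on the scaling of the libraries. As shares of assigned reads, HCB (0.00560% and 0.00771%) overlapped atorvastatin (0.00805% and 0.00567%) and control (0.00593% and 0.00453%). The log2 fold change of Hjv was 0.77 ± 0.22 in HCB versus control (adjusted p = 0.0256) and 1.27 ± 0.22 in atorvastatin plus HCB versus atorvastatin (adjusted p = 0.0023). The smaller of these calls was lost without Control replicate 1 (adjusted p = 0.131), Control replicate 2 (0.0995) or HCB replicate 2 (0.0730), and the larger was kept without any single library.

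Tfr2 (ENSRNOG00000001407, chromosome 12, 19107673 to 19124591), the liver receptor that senses loaded transferrin, had 303 and 263 CPM in atorvastatin plus HCB, 256 and 273 CPM in HCB, 294 and 222 CPM in atorvastatin, and 350 and 316 CPM in control. In CPM control was the highest group, and the other 3 overlapped. That too rests on the scaling. As shares of assigned reads, Tfr2 ran from 0.0210% to 0.0243% in HCB-labelled libraries and from 0.0244% to 0.0456% in unexposed ones, the ranges nearly touching. For Tfr2 the fitted log2 value was −0.33 ± 0.27 in HCB versus control (adjusted p = 0.380, 95% interval −0.92 to 0.25) and 0.13 in atorvastatin plus HCB versus atorvastatin (adjusted p = 0.730). As counts per count of Tfr2, not scaled to length, Hfe stood at 0.129 and 0.111 in atorvastatin plus HCB, 0.142 and 0.0951 in HCB, 0.0265 and 0.0399 in atorvastatin, and 0.0206 and 0.0280 in control, so the 2 sensors changed unequally.

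Bmp6 (ENSRNOG00000013717, chromosome 17, 26318569 to 26470365), the ligand that endothelial cells make when liver iron is high, had 7.37 and 7.33 CPM in atorvastatin plus HCB, 7.95 and 6.97 CPM in HCB, 2.47 and 7.48 CPM in atorvastatin, and 5.23 and 4.17 CPM in control. In CPM, only Atorvastatin replicate 2 among the unexposed libraries reached the HCB-labelled range. The fitted log2 change was 0.67 ± 0.43 in HCB versus control (adjusted p = 0.276) and 0.56 in atorvastatin plus HCB versus atorvastatin (adjusted p = 0.348). Without Atorvastatin replicate 2 the second value became 1.59 and was called (adjusted p = 0.0145), and without Atorvastatin replicate 1 it was −0.023. The sinusoidal endothelial markers summed to less in the HCB-labelled libraries, as given above, and their part in the Bmp6 values was not tested.

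On the export side, the ferroxidase rose and the exporter did not pass the test. Slc40a1 (ENSRNOG00000003872, chromosome 9, 48033526 to 48051481), ferroportin, had 149 and 257 CPM in atorvastatin plus HCB, 250 and 222 CPM in HCB, 228 and 235 CPM in atorvastatin, and 270 and 265 CPM in control. In CPM, apart from Atorvastatin plus HCB replicate 1, the libraries lay within a narrow band. That likeness rests on the scaling of the libraries. As shares of assigned reads, Slc40a1 ran from 0.0116% to 0.0220% in HCB-labelled libraries and from 0.0258% to 0.0352% in unexposed ones, without overlap. For Slc40a1 the log2 change came to −0.18 ± 0.29 in HCB versus control (adjusted p = 0.682, 95% interval −0.83 to 0.47) and −0.19 in atorvastatin plus HCB versus atorvastatin (adjusted p = 0.658). These are transcript levels, and hepcidin acts on the ferroportin protein, which was not measured.

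Cp (ENSRNOG00000011913, chromosome 2, 102439624 to 102498075), ceruloplasmin, the plasma copper protein that oxidises exported iron for loading onto transferrin, had 2845 and 2481 CPM in atorvastatin plus HCB, 1944 and 1897 CPM in HCB, 457 and 771 CPM in atorvastatin, and 703 and 973 CPM in control. All HCB-labelled libraries lay above all unexposed ones. Cp rose by a log2 change of 2.12 ± 0.38 in atorvastatin plus HCB versus atorvastatin (adjusted p = 0.0024) and 1.20 ± 0.37 in HCB versus control (adjusted p = 0.0332). The call in HCB versus control was lost without Control replicate 1 (adjusted p = 0.224), Control replicate 2 (0.0626), HCB replicate 1 (0.105), HCB replicate 2 (0.0806) or either library of the combination (0.0571 without replicate 1, 0.0575 without replicate 2). The annotated exons of Cp share 36 bases with Hps3 on the other strand, and counting used no strand, but Hps3 held 6338 reads in all against 481290 for Cp.

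Slc11a2 (ENSRNOG00000019550, chromosome 7, 131503081 to 131540145), the divalent metal importer DMT1, had 39.6 and 35.3 CPM in atorvastatin plus HCB, 34.9 and 37.9 CPM in HCB, 35.1 and 26.0 CPM in atorvastatin, and 29.0 and 29.1 CPM in control. In CPM the HCB-labelled libraries were a little higher, with Atorvastatin replicate 1 inside their range. As shares of assigned reads, the HCB-labelled range of 0.00287% to 0.00337% lay inside the unexposed range of 0.00285% to 0.00499%. The fitted log2 change came to 0.33 ± 0.23 in HCB versus control (adjusted p = 0.311) and 0.29 in atorvastatin plus HCB versus atorvastatin (adjusted p = 0.353), neither past the threshold.

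The plasma carriers parted. Hpx (ENSRNOG00000018257, chromosome 1, 159932755 to 159940328), hemopexin, which binds free heme in plasma and returns it to hepatocytes, had 6987 and 5914 CPM in atorvastatin plus HCB, 5178 and 5759 CPM in HCB, 1725 and 2818 CPM in atorvastatin, and 2190 and 3556 CPM in control. No HCB-labelled library overlapped an unexposed one. For Hpx the log2 change was 1.51 ± 0.42 in atorvastatin plus HCB versus atorvastatin (adjusted p = 0.0215) and 0.93 ± 0.41 in HCB versus control (adjusted p = 0.117). DESeq2 called the second as well (adjusted p = 0.0176). The first call was lost without Atorvastatin replicate 1 (adjusted p = 0.107) or either library of the combination (0.126 without replicate 1, 0.0683 without replicate 2).

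Tf (ENSRNOG00000030625, chromosome 8, 103767995 to 103816511), transferrin, the main plasma iron carrier, had 45953 and 39267 CPM in atorvastatin plus HCB, 27679 and 32909 CPM in HCB, 26551 and 35401 CPM in atorvastatin, and 26773 and 39320 CPM in control. In CPM the groups overlapped except that the combination stood above HCB and atorvastatin. As shares of assigned reads, HCB (2.27% and 2.93%) was lowest, and the combination (3.57% and 3.36%) lay below atorvastatin (3.77% and 3.89%). For Tf the log2 change came to −0.13 ± 0.45 in HCB versus control (adjusted p = 0.860) and 0.46 in atorvastatin plus HCB versus atorvastatin (adjusted p = 0.473). Counts of Tf per count of Hpx were 6.58 and 6.64 in atorvastatin plus HCB, 5.35 and 5.71 in HCB, 15.4 and 12.6 in atorvastatin, and 12.2 and 11.1 in control, a ratio within each library that scaling cannot move. Within each unexposed group, Tf, Cp, Hpx, Hamp and Hfe were lower in the library with more reads outside exons, Control replicate 1 or Atorvastatin replicate 1. Hjv and Tfr2 were higher in those libraries, and Bmp6, Slc40a1 and Slc11a2 differed in direction between the groups. The part of the reads outside exons in the levels was not tested.

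**Figure D2:**
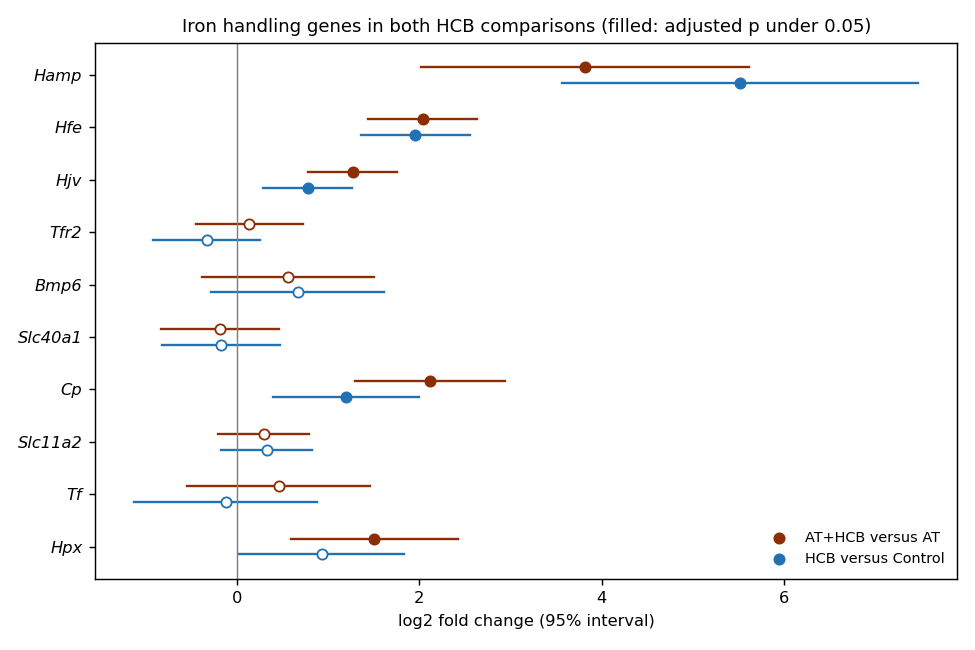
Fitted log2 fold change of each gene with its 95% interval in atorvastatin plus HCB versus atorvastatin (upper mark of each pair) and in HCB versus control (lower mark); filled marks passed an adjusted p of 0.05. Hamp lies farthest from 0 with the widest intervals, Hfe has like values of 2.04 and 1.96, and the marks of Tfr2, Bmp6, Slc40a1, Slc11a2 and Tf are open.

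Counted together, 4 of the 10 genes were called in HCB versus control, beside 26.9% of all 16591 genes tested. All 4 rose, as did 2165 of the 4466 genes called over all. In atorvastatin plus HCB versus atorvastatin 5 of 10 were called, beside 27.6% of all genes. All 5 rose, as did 2084 of the 4571 genes called. By single libraries in CPM, 7 of 10 lay higher in both HCB libraries than in both control libraries, beside 29.5% of all genes. In both combination libraries 7 of 10 lay higher than in both atorvastatin libraries, beside 33.2%. Tfr2 and Slc40a1 lay lower in both HCB libraries than in both control libraries, and no member did so in the other comparison. The share of all genes that lay lower is not reported here. The medians of the 10 log2 changes were 0.72 and 0.91 in these comparisons, against −0.09 and −0.11 over all genes tested. Averaged over both comparisons, which uses all 8 libraries, Hamp (4.67 ± 0.59), Hfe (2.00 ± 0.19), Cp (1.66 ± 0.26), Hpx (1.22 ± 0.29, adjusted p = 0.0060) and Hjv (1.02 ± 0.16) rose, 5 of 10 beside 46.6% of all genes called in either direction. These 5 average calls were kept whichever library was left out. The count in HCB versus control was 2, Hamp and Hfe, without Control replicate 1, Control replicate 2 or HCB replicate 2, and the count in atorvastatin plus HCB versus atorvastatin was 3 without Atorvastatin replicate 1.

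Scaled to exon length (RPKM, CPM per kilobase), the order of transcript levels in the HCB-labelled libraries was Tf (9143 ± 1984 RPKM, SD, n = 4), Hpx (3847 ± 487), Cp (553 ± 110), Hamp (127 ± 87.9), Tfr2 (92.1 ± 6.93), Hjv (49.0 ± 14.9), Slc40a1 (28.9 ± 6.53), Hfe (17.2 ± 3.17), Slc11a2 (7.54 ± 0.451) and Bmp6 (2.05 ± 0.112). There the spread of Hamp overlaps those of Tfr2 and Hjv, and the spreads of Hjv and Slc40a1 overlap. In the unexposed libraries the RPKM order was Tf (8029 ± 1601), Hpx (1660 ± 513), Cp (175 ± 51.4), Tfr2 (99.4 ± 18.2), Slc40a1 (32.9 ± 2.79), Hjv (23.5 ± 2.61), Slc11a2 (6.09 ± 0.784), Hamp (4.56 ± 2.57), Hfe (4.32 ± 0.428) and Bmp6 (1.34 ± 0.580). The spread of Hamp overlaps those of Slc11a2 and Hfe there. The place of Hamp in the order differed between the groups pooled here. Per length it was at 74.2 ± 50.3 RPKM in atorvastatin plus HCB, below Tfr2 at 95.2 ± 9.37 RPKM, and at 179 ± 98.5 RPKM in HCB, above Tfr2 at 89.0 ± 4.18 RPKM (SD, n = 2 each). It was at 5.25 ± 1.65 RPKM in atorvastatin, above Hfe at 4.39 ± 0.397 RPKM, and at 3.87 ± 3.90 RPKM in control, below Hfe at 4.24 ± 0.606 RPKM.

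Atorvastatin was compared within exposed and within unexposed rats, to ask whether the statin goes with a change in these genes. None of the 10 genes was called in atorvastatin plus HCB versus HCB or in atorvastatin versus control, and neither was any of the 16591 genes (0% in both), although 857 and 181 genes, 5.17% and 1.09%, had an unadjusted p under 0.05, and DESeq2 called 47 and 3 genes with 0 members among them. Hjv came nearest, at 0.75 ± 0.22 in atorvastatin plus HCB versus HCB (95% interval 0.26 to 1.24; edgeR unadjusted p = 0.0060, adjusted p = 0.892), with both combination libraries above both HCB libraries. Hamp was at −1.27 ± 0.71 in that comparison (95% interval −2.87 to 0.33), with overlapping libraries. That value was −2.21 without Atorvastatin plus HCB replicate 2, −0.70 without Atorvastatin plus HCB replicate 1 and −0.55 without HCB replicate 1, and was called in none of these. In atorvastatin versus control the member values ran from −0.45 for Cp to 0.43 for Hamp, and the Hamp interval of −1.32 to 2.19 leaves room for changes either way. Averaged over both statin comparisons, Hjv was at 0.51 ± 0.16 (unadjusted p = 0.0080, adjusted p = 0.990), and 0 of 10 genes were called, with 0 of all genes called, 601 (3.62%) at an unadjusted p under 0.05, and 12 called by DESeq2.

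The difference between the 2 HCB comparisons was tested as an interaction. No member was called, and 0 of 16591 genes were, with 391 genes (2.36%) at an unadjusted p under 0.05 and 5 called by DESeq2. The interaction was 0.92 ± 0.51 for Cp, −1.70 ± 1.05 for Hamp, 0.58 ± 0.58 for Hpx, 0.49 ± 0.31 for Hjv and 0.08 ± 0.37 for Hfe on the log2 scale. The larger Hamp value without atorvastatin and the larger Cp and Hjv values with it are therefore not shown to differ. The Hamp interaction was −3.50 without Control replicate 2 and −2.64 without Atorvastatin plus HCB replicate 2, and it was −1.13 without Atorvastatin plus HCB replicate 1, −0.98 without HCB replicate 1 and −0.93 without Control replicate 1, none of them called.

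The 5 genes whose profile over the 8 libraries was most like that of Hamp, by the root mean square difference of centred log2 CPM among 12933 genes of at least 1 CPM, were Cyp7a1 (0.608), Gsta5 (0.650), Ifi27l2b (0.747), Ifi27 (0.766) and Sult1c2a (0.802). Cyp7a1, which starts bile acid synthesis from cholesterol, had 340 and 449 CPM in atorvastatin plus HCB, 1392 and 510 CPM in HCB, 10.6 and 14.7 CPM in atorvastatin, and 6.83 and 40.0 CPM in control. Like Hamp, it peaked in HCB replicate 1 and was lowest in Control replicate 1. Among the members, Hfe was nearest to Hamp (1.68) and Tfr2 farthest (2.66). The closest pair of members was Cp and Hpx (0.248), with Hfe and Cp at 0.329. The measure is not scaled, so it also reflects how much each gene changed.

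Genes of hepcidin control beyond the members moved in both directions. Of 22 such genes tested, averaged over both HCB comparisons, 3 rose and 6 fell, 9 of 22 beside 46.6% of all genes called, and their median log2 change was 0.04 against −0.11 over all genes. In atorvastatin plus HCB versus atorvastatin 1 rose and 5 fell, 6 of 22 beside 27.6% of all genes, and in HCB versus control 0 rose and 6 fell, beside 26.9%. Each of these shares is near or below that of all genes. With 1 library left out, 6 to 9 were called in the average and 2 to 6 in each single comparison. The fewest, 2, came without either library of the combination in the first and without Control replicate 1 in the second. Without both libraries with most reads outside exons, 5 were called in the average. Erfe, the erythroid hormone that lowers hepcidin, had 3 reads in all in atorvastatin plus HCB against 193 in atorvastatin, and 2 reads in HCB against 206 in control. Its level in HCB was 1.15% of that in control, with a 95% counting interval of 0.138% to 4.20%. In atorvastatin plus HCB it was 1.66% of the atorvastatin level (0.339% to 4.91%). These intervals pool the reads of each group and cover counting error only, not the spread between rats. By library, Erfe ran from 0 to 0.0633 CPM in the HCB-labelled libraries and 0.768 to 3.74 CPM in the unexposed libraries. All 12 erythroid markers fell in both comparisons, with Alas2 at 5.26 to 28.1 CPM in the HCB-labelled libraries and 36.2 to 106 CPM in the unexposed libraries. The part of the erythroid markers in the Erfe values was not tested.

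Single genes of the bone morphogenetic protein pathway moved in both directions. Id1, a transcript induced by SMAD signalling, had 1.40 and 2.29 CPM in atorvastatin plus HCB, 2.15 and 1.34 CPM in HCB, 4.79 and 7.89 CPM in atorvastatin, and 5.94 and 5.21 CPM in control, and fell by 1.73 ± 0.29 on the log2 scale in the average (adjusted p = 0.00080). Smad7, an inhibitory SMAD induced by the same signal, had 28.3 and 25.6 CPM in atorvastatin plus HCB, 19.2 and 19.7 CPM in HCB, 55.6 and 36.4 CPM in atorvastatin, and 43.2 and 37.8 CPM in control, and fell by 0.91 ± 0.18. The related Smad6, named after its values were seen, fell by 0.84 ± 0.19, a call lost without both libraries with most reads outside exons (adjusted p = 0.0670). Acvr1, a type I receptor of the pathway, fell by 0.88 ± 0.17. Smad5, a SMAD that carries the signal to the nucleus, named after its values were seen, fell by 0.60 ± 0.17, and that call was lost without Control replicate 1, Atorvastatin replicate 1 or either library of the combination (adjusted p = 0.0546 to 0.0810). In the other direction Tmprss6, the protease that cleaves hemojuvelin, rose by 0.83 ± 0.20 (adjusted p = 0.0070), with 492 and 416 CPM in atorvastatin plus HCB, 346 and 397 CPM in HCB, 266 and 179 CPM in atorvastatin, and 245 and 237 CPM in control. Atoh8, another target of the pathway, named after its values were seen, also rose, by 0.47 ± 0.18 (adjusted p = 0.0460), with 21.4 and 18.8 CPM in atorvastatin plus HCB, 18.7 and 21.9 CPM in HCB, 16.02 and 15.93 CPM in atorvastatin, and 11.1 and 15.5 CPM in control. The type II receptor Acvr2a, named in the same way, rose by 0.47 ± 0.17 (adjusted p = 0.0404). The Atoh8 call was lost whichever library was left out, except Control replicate 2 and HCB replicate 1, and the Acvr2a call whichever was left out, except Control replicate 2 and HCB replicate 2. All libraries of the HCB label lay on one side of the unexposed libraries for each of these genes. They were named for their calls or after their values were seen, so this adds no separate support. The share of all genes whose libraries lie apart in this way was not counted, so nothing is read from these splits.

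**Figure D3:**
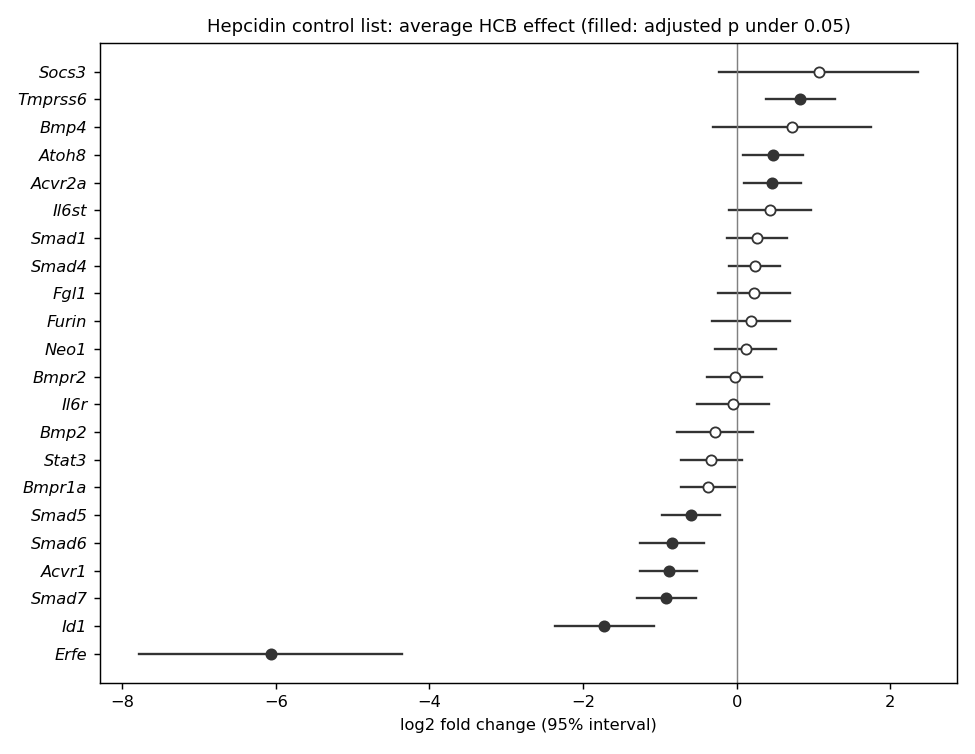
Average log2 fold change of HCB-labelled over unexposed libraries for the 22 other genes of hepcidin control, with 95% intervals; filled marks passed an adjusted p of 0.05. Erfe stands far to the left, Id1, Smad7, Acvr1, Smad6 and Smad5 are filled below 0, and Tmprss6, Atoh8 and Acvr2a are filled above 0.

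Among 9 genes of cellular iron uptake, 2 rose and 4 fell in the average of both HCB comparisons, 6 of 9 beside 46.6% of all genes (5 to 6 with 1 library left out). Their median log2 change was −0.23, against −0.11 over all genes. Lrp2, megalin, an endocytic receptor for many carrier proteins, had 107 and 81.1 CPM in atorvastatin plus HCB, 64.8 and 69.1 CPM in HCB, 9.63 and 10.4 CPM in atorvastatin, and 11.2 and 5.87 CPM in control, a log2 change of 3.10 ± 0.22. Steap3, the endosomal ferrireductase that works with transferrin receptor, had 39.5 and 37.0 CPM in atorvastatin plus HCB, 20.4 and 21.8 CPM in HCB, 105 and 134 CPM in atorvastatin, and 103 and 117 CPM in control, and fell by 2.02 ± 0.16. Its relative Steap2 fell by 3.35 ± 0.32. Both kept their calls in each HCB comparison under every alternative run, as did Lrp2. Tfrc, the classical transferrin receptor, named after its values were seen, did not pass the test in the average (−0.23 ± 0.18, adjusted p = 0.320).

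Of 9 storage and sensing genes tested, 2 rose and 1 fell in the average, 3 of 9 beside 46.6% of all genes, a lower share than that of all genes. The count was 1 without Control replicate 1 or Atorvastatin plus HCB replicate 2, and DESeq2 called 5. The median log2 change was 0.31, against −0.11 over all genes. Ncoa4 (ENSRNOG00000063221), the receptor that carries ferritin to lysosomes, had 0.927 and 0.967 CPM in atorvastatin plus HCB, 1.61 and 0.641 CPM in HCB, 9.46 and 3.28 CPM in atorvastatin, and 6.25 and 6.35 CPM in control, a log2 change of −2.62 ± 0.39. A second row of the same symbol held 0 reads. The ferritin chains Ftl1 (ENSRNOG00000064385, 0.81 ± 0.23, adjusted p = 0.0136) and Fth1 (0.65 ± 0.23, adjusted p = 0.0404), named after their values were seen, rose in the average, and edgeR called them in neither comparison alone. DESeq2 called Ftl1 in both, with adjusted p = 0.0276 in atorvastatin plus HCB versus atorvastatin and 0.0093 in HCB versus control, and called Fth1 in atorvastatin plus HCB versus atorvastatin (adjusted p = 0.0268). The Ftl1 call was lost without Control replicate 1 (adjusted p = 0.0503) or Atorvastatin plus HCB replicate 2 (0.0714), and the Fth1 call was lost whichever library was left out, except HCB replicate 2.

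Of 11 heme and hemoglobin salvage genes, 6 rose and 1 fell in the average, 7 of 11 beside 46.6% of all genes (6 to 8 with 1 library left out). The median log2 change was 0.71, against −0.11 over all genes. Slc46a1, a heme and folate carrier, had 100.0 and 61.7 CPM in atorvastatin plus HCB, 74.7 and 68.3 CPM in HCB, 12.6 and 12.1 CPM in atorvastatin, and 11.4 and 12.3 CPM in control (2.65 ± 0.19). Blvrb, a biliverdin reductase, rose by 1.33 ± 0.15, and the hemoglobin scavenger Hp, named after its values were seen, by 1.71 ± 0.35. Hmox1, heme oxygenase 1, which releases iron from heme, went the other way, with 22.6 and 33.8 CPM in atorvastatin plus HCB, 29.5 and 30.0 CPM in HCB, 84.3 and 114 CPM in atorvastatin, and 110 and 120 CPM in control, and fell by 1.88 ± 0.19. Slc46a1, Blvrb and Hmox1 kept their calls in each HCB comparison under every alternative run. Macrophages also express Hmox1. Their markers overlapped between the HCB-labelled and unexposed libraries as a sum, while single markers moved in both directions. The part of the macrophage markers in the Hmox1 values was not tested.

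Of 11 iron-sulfur cluster assembly genes, 6 rose and 0 fell in the average, a share near the 46.6% of all genes called, and 6 were called whichever library was left out. The median log2 change was 0.77, against −0.11 over all genes. The scaffold Iscu rose by 1.20 ± 0.17, the glutaredoxin Glrx5 by 1.20 ± 0.26 and the cysteine desulfurase Nfs1 by 0.97 ± 0.16. Nfs1 had 128 and 117 CPM in atorvastatin plus HCB, 103 and 117 CPM in HCB, 56.2 and 54.7 CPM in atorvastatin, and 58.7 and 67.5 CPM in control. Of the 4 other binding and oxidase genes tested, 2 fell and 0 rose, again near that share. Heph, hephaestin, a ferroxidase related to ceruloplasmin, had 1.98 to 2.88 CPM in the HCB-labelled libraries and 11.6 to 14.8 CPM in the unexposed libraries (−2.46 ± 0.20), opposite in direction to Cp. Lcn2, a siderophore binder that neutrophils also make, fell by 1.78 ± 0.27, and the part of the neutrophil markers, lower in all HCB-labelled libraries, was not tested. No gene of these 6 lists was called by edgeR in any atorvastatin comparison.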

How the data were processed

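The data used are the authors' deposited counts, whole reads for each Ensembl gene. Per the submitters' processing notes, the authors trimmed reads with fastp 0.23.4 and aligned them with STAR 2.7.10b. Per the file headers, featureCounts 2.0.6 counted reads over exons of Ensembl 111 on mRatBN 7.2, with no strand or read pair option. The authors' reads of all classes sum to 508 M, 2.04 times the stated 249 M, so mates appear to have been counted singly. No deposited column was left out.

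The test was edgeR 4.0.16 (R 4.3.3), with TMM, filterByExpr and its robust quasi-likelihood test in 1 model of 4 groups and 8 libraries. Of 30562 genes, 16591 were tested, with Benjamini-Hochberg adjustment over these and a threshold of 0.05. Levels in CPM use TMM library sizes, and RPKM divides by the deposited exon length. TMM factors were 0.777 to 0.891 in the HCB-labelled libraries and 1.01 to 1.42 in the unexposed libraries, so this scaling differed along the HCB label. The common biological coefficient of variation was 0.295. With 2 animals a group, p-values rest on the spread between these few rats and on a spread that the test borrows across genes.

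Members, gene lists and marker lists were chosen with earlier results of these data known. From each list the text names up to 3 called genes with the smallest p per HCB comparison, and the first 3 detected markers of each marker list; some genes that this rule names are not reported here. The steps were tested on simulated data for 16591 genes, of which 200 were set to change in each run. In HCB versus control they called 70 of 100 genes set to change 4-fold and 14 of 100 set to change 2-fold. In atorvastatin plus HCB versus atorvastatin they called 68 and 13, with 6 false calls in each comparison. The real comparisons called 4466 and 4571 genes, so these rates do not give the share of real changes found. Alternatives were DESeq2 1.42.0, its size factors, other filters, no robust estimation, a replicate block, fits of only the groups compared and libraries left out; halved counts and TMM without the 20 most abundant genes were chosen after seeing the data, as was the use of all alternatives on the other iron lists. Figures come from matplotlib 3.10.9 (Python 3.11.15).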

Additional observations from a re-analysis of the deposited data

How the results depend on the processing

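The count of members called was 4 in HCB versus control, 2 to 4 with 1 library left out and 2 without both libraries with most reads outside exons (Control replicate 1 and Atorvastatin replicate 1). It was 5 in atorvastatin plus HCB versus atorvastatin and 3 to 5 with 1 library left out, and 5 in the average, 5 to 6 with 1 left out. With no filter on low counts, 1 member, Hamp, was called in atorvastatin plus HCB versus HCB (−1.26, adjusted p = 0.0037) and 1, again Hamp, in the interaction (−1.69, adjusted p = 0.0295), against 0 with each other setting for these, 0 to 0 with 1 library left out; the cause was not tested. Halved counts, both other scalings and estimation without robustness moved no count of members past 1.5 times. Replicate numbers did not pair the samples (correlations of deviations −0.051 to 0.269), and with a replicate block the members called remained 4, 5 and 5 in the HCB comparisons and 0 in the others, while the average calls of Atoh8 (0.48, adjusted p = 0.0527) and Acvr2a (0.47, adjusted p = 0.0530) were lost.

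All reversed signs were of values that had not passed the test. With 1 library left out, HCB versus control ran from −0.38 to 0.21 for Tf. Atorvastatin plus HCB versus atorvastatin ran from −0.61 to 0.19 for Slc40a1, −0.023 to 1.59 for Bmp6, −0.043 to 0.35 for Tfr2 and −0.13 to 0.0068 for Tfrc. The average ran from −0.38 to 0.018 for Slc40a1 and −0.19 to 0.011 for Tfr2. Atorvastatin plus HCB versus HCB ran from −0.037 to 0.12 for Slc11a2, −0.66 to 0.13 for Slc40a1, −0.085 to 0.40 for Hfe and −0.11 to 0.083 for Bmp6. Atorvastatin versus control ran from −0.34 to 2.24 for Hamp, −0.74 to 0.056 for Hpx, −0.16 to 0.27 for Slc11a2, −0.35 to 0.21 for Tf, −0.091 to 0.21 for Hfe and −0.94 to 0.67 for Bmp6, and the interaction from −0.14 to 0.35 for Hfe. Without both libraries with most reads outside exons, Bmp6 was −0.028 in atorvastatin plus HCB versus atorvastatin, Tf −0.056 and Tfr2 0.046 in the average, and Hamp −0.063, Slc11a2 −0.18 and Hfe −0.015 in atorvastatin versus control. Over all genes, 4466 calls in HCB versus control became 2108 without both of those libraries, 4571 in atorvastatin plus HCB versus atorvastatin became 2147, and 7728 in the average became 4643; with 1 library left out the first count ran from 2164 to 4622 and the second from 1902 to 4819. With no filter, 179, 76, 140 and 70 genes were called in atorvastatin plus HCB versus HCB, atorvastatin versus control, the average of both and the interaction, against 0 with it. With counts halved, the Hamp change was 3.79 in atorvastatin plus HCB versus atorvastatin and 5.50 in HCB versus control, both still called. In every fit with 1 library left out, the lone library of its group is assumed to vary like the other groups.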
